A study of Saccharomyces cerevisiae with 6 samples.

Results

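The genes described here encode the enzymes that build ergosterol, the sterol of the yeast cell membrane, together with the proteins that feed electrons to those enzymes, regulate them, take sterols up and store them as esters. The list holds 35 genes, chosen by symbol, of which 34 had a named spot on the array among 5379 named genes in all. HMG2 had no named spot and was not analysed here. RNA came from Saccharomyces cerevisiae strain S288C in YPD, a rich medium with glucose, at 25 °C. Methanol-treated cultures received the solvent at a final 5% when they reached an optical density of 1 and were exposed for 2 h. Untreated cultures reached the same density and then grew for 2 h with nothing added. Each of 3 arrays, here replicates 1 to 3 from independent biological samples, compared polyA RNA of treated cells (Cy5) with that of untreated cells (Cy3), and was read at high and at low laser power, so that 6 scans stand for 3 replicates. The dyes kept the same orientation throughout, and a dye effect of a single gene therefore cannot be told apart from its response. S288C carries a transposon in HAP1, the gene of a haem-responsive activator of several sterol genes, and this limits it as a model of sterol control in both cultures.

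Ergosterol synthesis starts with the mevalonate pathway, which turns acetyl-CoA into farnesyl pyrophosphate. Squalene is made from farnesyl pyrophosphate and closed to lanosterol, and the late steps strip methyl groups from lanosterol and rearrange its double bonds. Several of these enzymes need molecular oxygen, haem or iron, so that yeast without oxygen has to import sterols. The zinc-cluster factors Upc2 and Ecm22 activate sterol genes when sterols run low. Surplus sterol is esterified and kept in lipid droplets, and sterol composition is known to affect how membranes stand up to alcohols.

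Values are log2 ratios of transcript levels, methanol over untreated, after the authors' normalization and with each array set to a median of 0 over its genes. The log base of 2 and the direction were not stated with the values. The direction is likely rather than certain, since it rests on the treated RNA being the Cy5 channel and the first channel listed. Were it the other way round, every sign and every higher or lower call given here would be exchanged, the share of all genes included, and each fold would become its inverse. A gene was called when the limma fit over all genes with a value on all 3 arrays gave a Benjamini-Hochberg adjusted p below 0.05. A ratio set to the median gene does not show whether all transcripts per cell changed together.

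Of the 34 sterol genes on the array, 29 had a value on all 3 arrays and were tested. Of these, 14 were lower in methanol, 2 were higher and 13 were not called. The sterol genes called in either direction, 55.2%, were close to the 50.3% of all 4336 genes tested. The lower calls made up 48.3% of the sterol genes tested, beside 24.2% of all genes, and the higher calls 6.90%, beside 26.0% of all genes. At least 2-fold lower calls were 6 of 29 (20.7%), beside 5.63% of all genes. Without replicate 1 the lower calls were 9, and 13.7% of all genes were called lower. The median log2 ratio was -0.36 for the sterol genes and -0.01 for all genes tested, and on replicates 1, 2 and 3 the sterol median was -0.49, -0.22 and -0.46. The direction was the same on all 3 arrays in 22 of 29 sterol genes (75.9%), against 72.4% of all genes tested. In the order of all genes tested, 6 sterol genes lay in the lowest 10%, 13 in the lowest 25% and 1, ERG28, in the highest 25%. The list was put together with earlier results of these arrays known, and these shares describe it without a test.

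**Figure D1:**
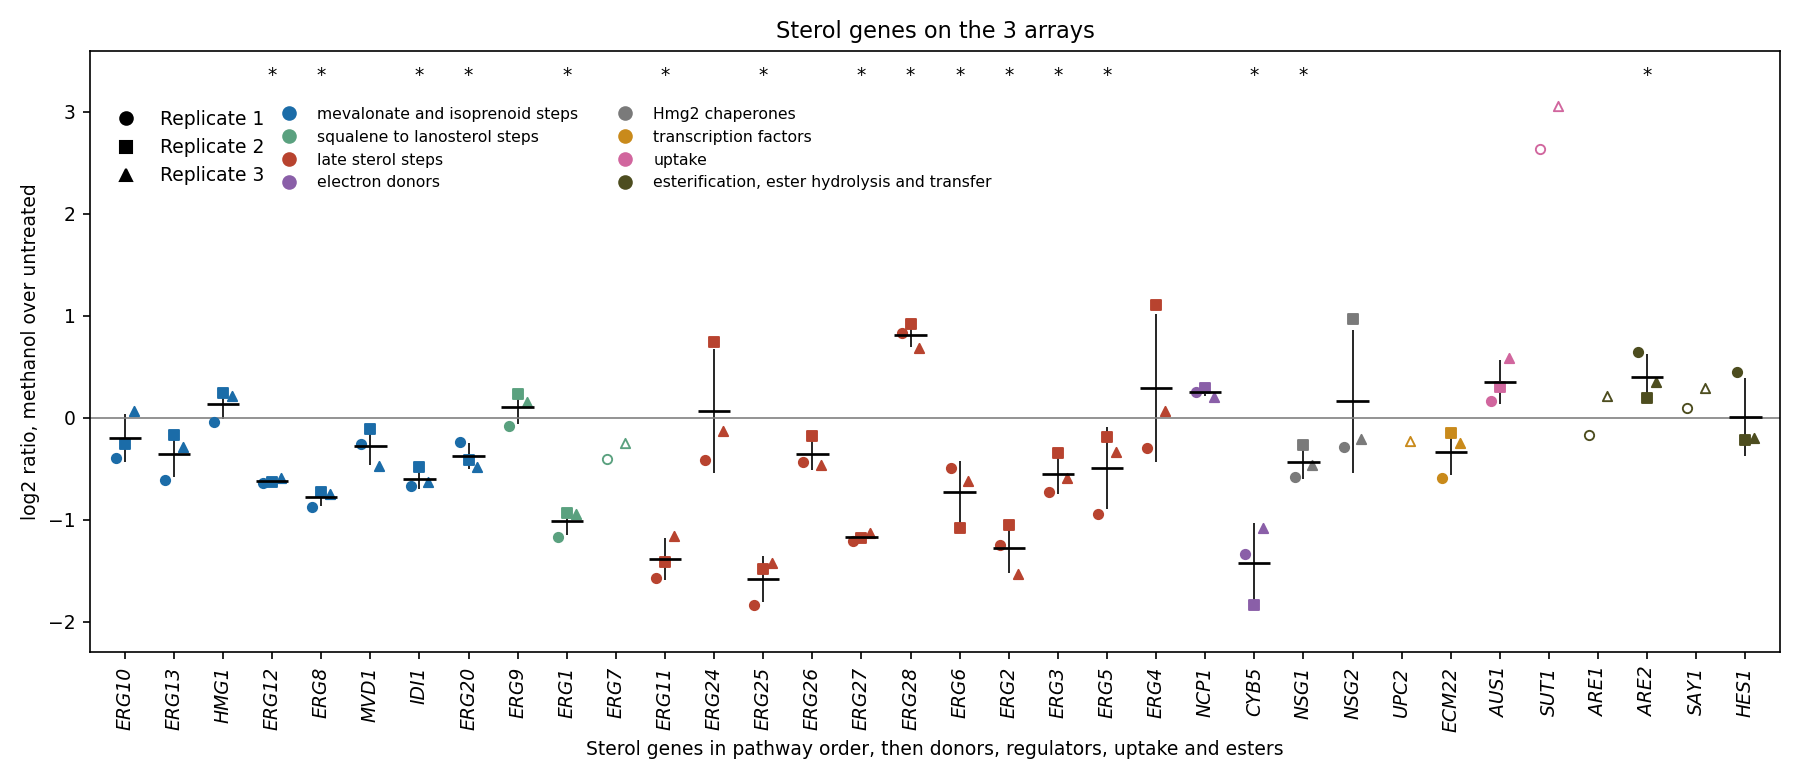
Log2 ratio (methanol over untreated, y axis) of the 34 sterol genes on the array (x axis) in pathway order, followed by donors, regulators, uptake and ester genes. Circles, squares and triangles are replicates 1, 2 and 3, bars with lines are the mean ± SD of genes with 3 arrays, open symbols are genes with fewer arrays, and asterisks mark genes called by limma. Points of ERG25, ERG11, CYB5, ERG2 and ERG27 lie below -1 on each array, and SUT1 lies at 2.64 and 3.06 on its arrays.

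**Figure D2:**
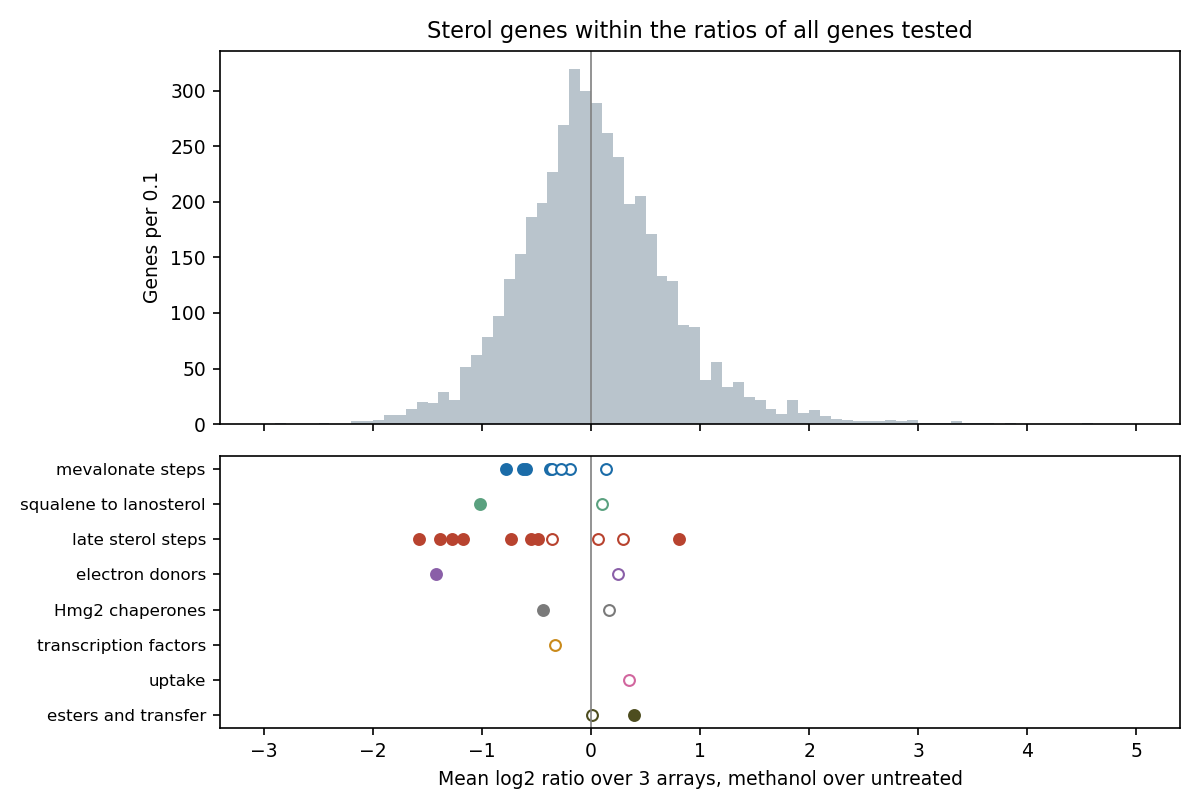
Histogram of the mean log2 ratio of all 4336 genes tested (upper panel, genes per 0.1 on the log2 scale) and the 29 tested sterol genes by role (lower panel, filled where called by limma, open where not). The late sterol steps spread from -1.58 (ERG25) to 0.81 (ERG28), while the mevalonate steps lie between -0.78 and 0.14.

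The mevalonate and isoprenoid steps were lower in 4 of 8 tested genes, beside 24.2% of all genes. They were higher in 0, beside 26.0% of all genes. Their median was -0.37 (-0.50, -0.34 and -0.48 on replicates 1, 2 and 3). Both kinase genes and the genes of the last steps, IDI1 (YPL117C) and ERG20 (YJL167W), were called. ERG8 (YMR220W), the phosphomevalonate kinase gene, had log2 ratios of -0.88, -0.73 and -0.74 on replicates 1, 2 and 3. It fell to 0.582 times the untreated level (mean -0.78 ± 0.08, SD, n = 3, limma adjusted p = 0.00183). ERG12 (YMR208W), the mevalonate kinase gene, stood at -0.64, -0.63 and -0.59, or 0.650 times untreated (adjusted p = 0.00446), and its SD of 0.03 was the smallest of the tested sterol genes. IDI1, the isopentenyl diphosphate isomerase gene, stood at -0.67, -0.49 and -0.63 (0.661 times untreated, adjusted p = 0.00587). ERG20 encodes farnesyl pyrophosphate synthase and had -0.23, -0.41 and -0.48, a mean of -0.38 ± 0.13. Its adjusted p of 0.0394 was lost with the high-power scans alone and without each replicate in turn, and was kept with the low-power scans alone (-0.45).

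The genes of the first enzymes of the pathway, ERG10, ERG13 and HMG1, did not pass the test. Neither did MVD1, which comes after both kinase genes in pathway order. HMG1 (YML075C) encodes the main HMG-CoA reductase, the classical control point of the pathway. Its log2 ratios were -0.04, 0.24 and 0.21 (mean 0.14 ± 0.15, adjusted p = 0.401), close to 0 and on both sides of it. ERG10 (YPL028W), the acetyl-CoA thiolase gene, also changed sign between arrays, at -0.39, -0.26 and 0.07 (adjusted p = 0.275). ERG13 (YML126C), the HMG-CoA synthase gene, was below 0 on each array, at -0.61, -0.17 and -0.29 (adjusted p = 0.0637). It was called lower without replicate 2, where its mean was -0.45, and under 4 of the other settings tried. MVD1 (YNR043W), the mevalonate pyrophosphate decarboxylase gene, had -0.25, -0.11 and -0.48 (adjusted p = 0.115).

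From squalene to lanosterol, the squalene epoxidase gene ERG1 (YGR175C) fell while the squalene synthase gene ERG9 (YHR190W) did not pass the test. Squalene epoxidase is the first oxygen-using enzyme of the pathway and the target of allylamine antifungals. ERG1 had log2 ratios of -1.17, -0.93 and -0.95, a fall to 0.494 times untreated (mean -1.02 ± 0.13, n = 3, adjusted p = 0.000692). ERG9, one step earlier, had -0.08, 0.24 and 0.15 (adjusted p = 0.526). Within an array, ERG1 minus ERG9 was -1.09, -1.17 and -1.10 (mean -1.12 ± 0.04), a gap that varied little between arrays in a pair chosen after the values were seen. An exact sign-flip test of this gap gave a two-sided p = 0.25, the smallest that 3 arrays allow. Any gap with the same sign on all 3 arrays gives this p, whatever its size. ERG7 (YHR072W), the lanosterol synthase gene, had -0.41 and -0.25 on replicates 1 and 3 and none on replicate 2, and was outside the main test. It was not called when genes with values on at least 2 arrays were fitted (limma adjusted p = 0.150), where 21.5% of 5208 genes were called lower.

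The late steps held 4 of the 6 falls of at least 2-fold, or 36.4% of their genes, beside 5.63% of all genes. Of 11 genes, all tested, 7 were lower (63.6%, beside 24.2% of all genes). Only 1 was higher (9.09%, beside 26.0% of all genes) and 3 were not called. The late median was -0.55 (-0.72, -0.34 and -0.59 on replicates 1, 2 and 3). Set against the mevalonate median on the same array, the late median differed by -0.22, -0.01 and -0.11 (mean -0.11 ± 0.11). The late genes ranged more widely, from -1.58 to 0.81 in their means, than the mevalonate genes, from -0.78 to 0.14. ERG11 (YHR007C) encodes the cytochrome P450 that removes the methyl group at C14 and is the target of azole antifungals. It had -1.57, -1.42 and -1.16 and fell to 0.384 times untreated (adjusted p = 0.000256). ERG2 (YMR202W), the C-8 sterol isomerase gene, had -1.24, -1.05 and -1.53 and fell to 0.414 times untreated (adjusted p = 0.000421). Both were below -1 on every array, and only 1.96% and 2.70% of all genes tested had a lower mean than ERG11 and ERG2.

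Smaller falls were found at the methyltransferase, the C-5 desaturase and the C-22 desaturase. ERG6 (YML008C), the sterol C-24 methyltransferase gene, had -0.49, -1.08 and -0.62 (mean -0.73 ± 0.31, adjusted p = 0.00589). ERG3 (YLR056W), the C-5 desaturase gene, had -0.72, -0.34 and -0.59 (0.682 times untreated, adjusted p = 0.0110), and its call was lost without replicate 1 or 3. ERG5 (YMR015C) encodes the C-22 desaturase, another cytochrome P450. Its log2 ratios of -0.95, -0.19 and -0.34 (adjusted p = 0.0447) were uneven, and without replicate 1 the mean was -0.26 and not called. It also missed the threshold without replicate 3 (-0.57) and when genes with values on at least 2 arrays were tested.

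ERG24 (YNL280C) and ERG4 (YGL012W) differed more between arrays than from 0. ERG24, the C-14 reductase gene, had -0.42, 0.75 and -0.13 (mean 0.07 ± 0.61, adjusted p = 0.816). ERG4, the C-24(28) reductase gene of the last step, had -0.30, 1.11 and 0.07 (mean 0.29 ± 0.73, adjusted p = 0.358). In both, replicate 2 was high and came from the high-power scan alone. Without replicate 2 the means were -0.27 for ERG24 and -0.11 for ERG4, and neither was called. ERG4 had only a low-power value on replicates 1 and 3, so its arrays also differ in laser power.

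The genes of C4 demethylation, which act as one complex in the endoplasmic reticulum, moved in different directions. ERG25 (YGR060W) encodes the C-4 methyl oxidase and had -1.84, -1.48 and -1.42, a fall to 0.334 times untreated (adjusted p = 0.000152), the largest of the tested sterol genes. ERG27 (YLR100W), the 3-keto reductase gene, had -1.21, -1.18 and -1.13 and fell to 0.444 times untreated with an SD of 0.04 (adjusted p = 0.000315). ERG26 (YGL001C), the C-3 dehydrogenase gene, had -0.43, -0.18 and -0.46 and narrowly missed the threshold (0.780 times untreated, adjusted p = 0.0507). It was called under 6 of the 11 alternative settings. ERG28 (YER044C) encodes the scaffold that tethers these enzymes to each other. It had 0.83, 0.92 and 0.68 and rose to 1.75 times untreated (adjusted p = 0.00173), the reverse of its partners on each array.

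These genes were set against each other within arrays after their values were seen. On each array the order of the log2 ratios was ERG28 highest, then ERG26, then ERG27, then ERG25. ERG25 minus ERG28 was -2.67, -2.40 and -2.10 on replicates 1, 2 and 3 (mean -2.39 ± 0.28). ERG27 minus ERG28 was -2.04, -2.10 and -1.81 (mean -1.98 ± 0.15), and ERG26 minus ERG28 was -1.26, -1.10 and -1.14 (mean -1.17 ± 0.08). The enzymes also differed among themselves, with ERG25 minus ERG26 at -1.40, -1.30 and -0.96. Each of these gaps had the same sign on 3 of 3 arrays. The exact sign-flip p = 0.25, the smallest possible here, follows from that and adds nothing to the signs. The values of all 4 genes came from both laser powers on every array.

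**Figure D3:**
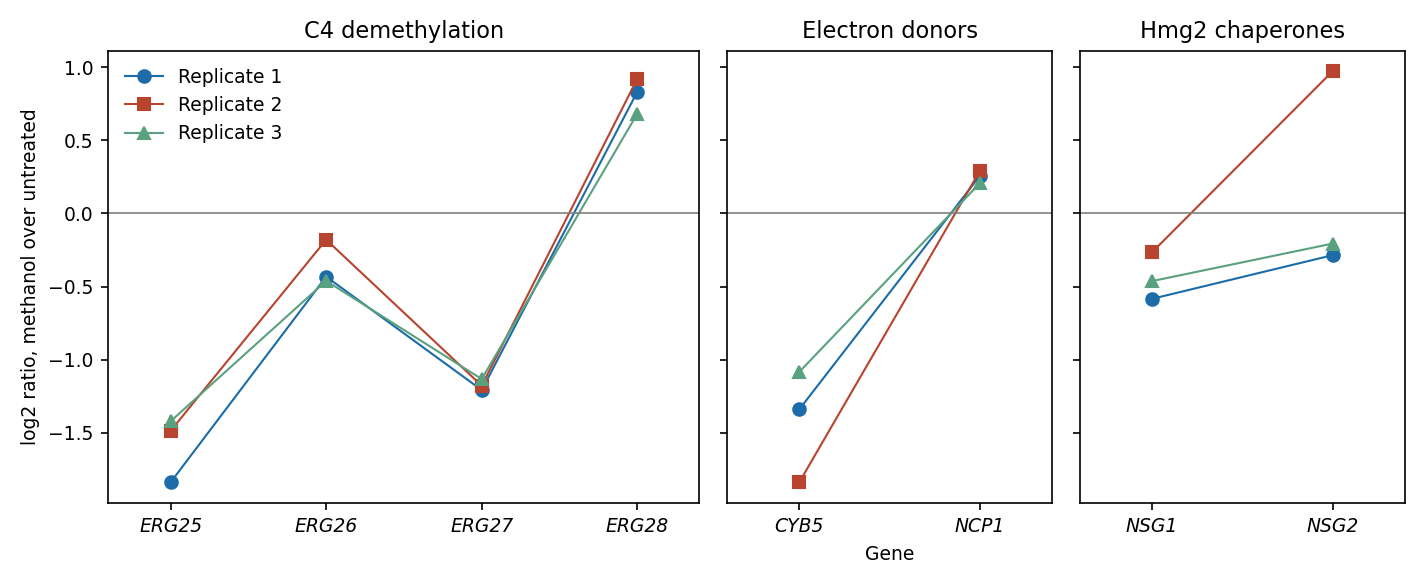
Log2 ratios (methanol over untreated, y axis) of the C4 demethylation genes, the electron donors and the Hmg2 chaperone genes (x axis), joined within each array. The 3 lines run in parallel for ERG25 to ERG28, with ERG28 between 0.68 and 0.92, whereas NSG2 stands at 0.97 on replicate 2 and at -0.29 and -0.21 on replicates 1 and 3.

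Of the electron donors, CYB5 fell and NCP1 did not pass the test. CYB5 (YNL111C) encodes cytochrome b5, which passes electrons to desaturases and to the C-4 methyl oxidase. It had -1.34, -1.84 and -1.08 and fell to 0.374 times untreated (adjusted p = 0.000542). NCP1 (YHR042W), the gene of the NADPH reductase that serves the P450 enzymes, had 0.26, 0.29 and 0.21 (mean 0.25 ± 0.04, adjusted p = 0.119). It was called higher among the genes with a value in all 6 scans. Within arrays CYB5 minus NCP1, a pair also chosen after the values were seen, was -1.60, -2.13 and -1.29 (mean -1.67 ± 0.42, exact sign-flip p = 0.25). Without replicate 2, whose CYB5 value came from the high-power scan alone, CYB5 averaged -1.21.

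Grouped by what they consume, a grouping made after the values were seen, all 5 oxygen-using enzyme genes (ERG1, ERG11, ERG25, ERG3 and ERG5) were called lower, with a median of -1.02 (-1.17, -0.93 and -0.95 on replicates 1, 2 and 3). The background of lower calls is the 24.2% of all genes given above. The calls of ERG3 and ERG5 were lost without replicate 1 or 3. Other enzymes after squalene, without the scaffold ERG28, were lower in 3 of 6 tested genes with a median of -0.54 (ERG27, ERG6 and ERG2 called, ERG24, ERG26 and ERG4 not). Of these, ERG2 (-1.27) and ERG27 (-1.17) had lower means than ERG1 (-1.02), ERG3 (-0.55) and ERG5 (-0.49), though not than ERG11 and ERG25. No test of the difference between these groups was made.

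Genes that regulate the pathway showed small ratios or few values. NSG1 (YHR133C) and NSG2 (YNL156C) encode relatives of mammalian Insig that stabilise the Hmg2 reductase. NSG1 had -0.58, -0.27 and -0.46 (0.738 times untreated, adjusted p = 0.0246), a call lost without replicate 1 or 3. NSG2 had -0.29, 0.97 and -0.21 (adjusted p = 0.607), with the high value from the high-power scan of replicate 2. NSG1 minus NSG2 was -0.30, -1.24 and -0.26 (mean -0.60 ± 0.55, exact sign-flip p = 0.25). Without replicate 2 the mean gap was -0.28. ECM22 (YLR228C) had -0.60, -0.15 and -0.25 and did not pass the test (adjusted p = 0.0823), though it was called lower without replicate 2 (-0.42). UPC2 (YDR213W), its paralogue, had a value in 1 scan only, -0.23 on replicate 3, where ECM22 stood at -0.25, and no difference between them can be given with an error.

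Sterol uptake held the highest ratio of the list, in the likely direction. SUT1 (YGL162W) encodes a nuclear factor that promotes sterol import when oxygen is lacking. It had 2.64 on replicate 1 and 3.06 on replicate 3, both from the high-power scan, and no value on replicate 2. The mean of 2.85 ± 0.30 (n = 2) is 7.21 times untreated. It was outside the main test, and was called when genes with values on at least 2 arrays were fitted (limma adjusted p = 0.000383), where 23.3% of 5208 genes were called higher. AUS1 (YOR011W), the gene of an ABC transporter that imports sterols, had 0.16, 0.30 and 0.59, above 0 on each array but short of the threshold (mean 0.35 ± 0.22, adjusted p = 0.0653). It was called higher under 4 of the 11 alternative settings, the low-power scans alone among them (0.44).

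Of the 4 genes of sterol esters and transfer, only 2, ARE2 and HES1, had a value on all 3 arrays and were tested. ARE2 was called higher (1 of 2, beside 26.0% of all genes) and 0 were called lower, beside 24.2% of all genes. ARE2 (YNR019W), the gene of the main sterol acyltransferase in aerobic cells, had 0.64, 0.20 and 0.36 (1.32 times untreated, adjusted p = 0.0445). Its call was lost under 5 settings, among them without replicate 1 (0.28), without replicate 3 (0.42) and without centring (0.36). ARE1 (YCR048W), the gene of the other acyltransferase, had -0.17 and 0.21 on replicates 1 and 3, and ARE1 minus ARE2 was -0.81 and -0.15 there, on too few arrays for a test. SAY1 (YGR263C), the steryl acetyl hydrolase gene, had 0.09 and 0.29 on the same arrays. Neither ARE1 (limma adjusted p = 0.936) nor SAY1 (adjusted p = 0.374) was called when genes with values on at least 2 arrays were fitted. HES1 (YOR237W) encodes an oxysterol-binding protein of the OSH family and had 0.45, -0.22 and -0.20, on both sides of 0 (adjusted p = 0.965).

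In other genes of sterol biology, from 5 lists of 55 genes in all, 42 were tested, of which 11 were higher and 8 lower. These shares, 26.2% and 19.0%, are near the 26.0% and 24.2% of all genes. The list of ester hydrolysis and acetylation was lower in 3 of 4 genes, beside 24.2% of all genes, and higher in 0 (median -0.55). The steryl ester hydrolase genes YEH1 and YEH2 had very similar profiles, with -0.87, -0.91 and -0.16 for YEH1 (adjusted p = 0.0175) and -0.88, -0.89 and -0.21 for YEH2 (adjusted p = 0.0134). Both were lowest on replicates 1 and 2 and nearer 0 on replicate 3, and both lost their call without replicate 1. ATF2, whose enzyme acetylates sterols, fell by 0.46 ± 0.22 (adjusted p = 0.0253), a call lost without replicate 1 or 3. TGL1, another steryl ester hydrolase gene, stood at -0.24 ± 0.21 and was not called (adjusted p = 0.172).

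Among 16 tested sterol transport genes, 5 rose and 4 fell (median -0.01), shares of 31.2% and 25.0% that are near the 26.0% and 24.2% of all genes. NPC2, a relative of the human Niemann-Pick sterol carrier of the lysosome, had 1.31, 1.57 and 1.70 and rose to 2.89 times untreated (adjusted p = 0.000153). PDR11 encodes the ABC transporter that works beside Aus1 in sterol uptake. It had 1.08, 1.15 and 1.10, all from high-power scans, and rose to 2.15 times untreated (adjusted p = 0.000401). SWH1, an OSH family gene with a pair of spots, rose by 0.49 ± 0.03 and PRY1, the gene of a secreted sterol-binding protein, by 0.46 ± 0.27, and both lost their call when some replicates were left out. LAM5, outside the main test, had 0.72 and 0.61 on replicates 1 and 3. It was called higher when genes with values on at least 2 arrays were fitted (limma adjusted p = 0.0201), where 23.3% of 5208 genes were called higher. YSP1, with -0.28 and -0.12 on the same arrays, was not called in that fit (adjusted p = 0.344).

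The falls in transport included other members of the OSH family. KES1 (-0.78 ± 0.34, adjusted p = 0.00526) and OSH6 (-0.57 ± 0.12, adjusted p = 0.00766) fell, the first losing its call without replicate 1 and the other without replicate 1 or 3. YSP2, the gene of a sterol transfer protein at membrane contacts, had -0.47, -0.90 and -0.56 (adjusted p = 0.00679) and kept its call under all 9 settings that gave it a value. PRY2, a paralogue of PRY1, fell by 0.50 ± 0.16 (adjusted p = 0.0144) while PRY1 rose, and PRY2 lost its call without replicate 1 or 3.

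Branches that use isoprenoids for other products held 1 lower gene of 9 tested (11.1%, beside 24.2% of all genes) and 0 higher, beside 26.0% of all genes (median 0.08). SRT1, outside the main test, had 0.96 and 1.20 on replicates 1 and 3. It was called higher when genes with values on at least 2 arrays were fitted (limma adjusted p = 0.00483), where 23.3% of 5208 genes were called higher. RAM1 and CDC43, also outside the main test, were not called in that fit. BTS1, the geranylgeranyl pyrophosphate synthase gene, fell by 0.51 ± 0.32 (adjusted p = 0.0263), a call lost without replicate 1 or 2. In the list of regulators and of degradation at the endoplasmic reticulum, 2 of 8 tested genes rose and 0 fell, and the 25.0% that rose is near the 26.0% of all genes. DAP1, outside the main test, had 0.57 and 0.60 on replicates 1 and 3. It was called higher in the fit of genes with values on at least 2 arrays (limma adjusted p = 0.0293). MOT3, with 0.71 and -0.29 on replicates 2 and 3, was not called in that fit (adjusted p = 0.550). HRD3, the partner of the ubiquitin ligase that degrades Hmg2, rose by 0.64 ± 0.31 (adjusted p = 0.0107, lost without replicate 1 or 3). UBC7, the conjugating enzyme of that ligase, rose by 0.58 ± 0.11 (adjusted p = 0.00656, lost without replicate 1).

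Cell wall genes that Upc2 activates in cells without oxygen rose in 4 of 5 tested cases (80.0%, beside 26.0% of all genes) and fell in 0, beside 24.2% of all genes (median 1.22). TIR4 had 1.33, 1.10 and 1.23 (2.33 times untreated, adjusted p = 0.000315) and TIR1 had 0.91, 1.09 and 0.50 (adjusted p = 0.00326). PAU23 (1.24 ± 0.19) and PAU24 (1.22 ± 0.25), also known as DAN2 and DAN3, rose as well, with values from high-power scans alone. These belong to a family of near-identical genes whose signals may be shared, so the 4 rises may not be separate measurements. TIR4 had a low-power value on replicate 3 only. TIR2 stood at 0.30 ± 0.40 and was not called. TIR3 had 0.36 and 0.24 on replicates 1 and 3 and was outside the main test. It was not called when genes with values on at least 2 arrays were fitted (limma adjusted p = 0.177). DAN1 had no value in any scan, and DAN4 had no named spot.

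**Figure D4:**
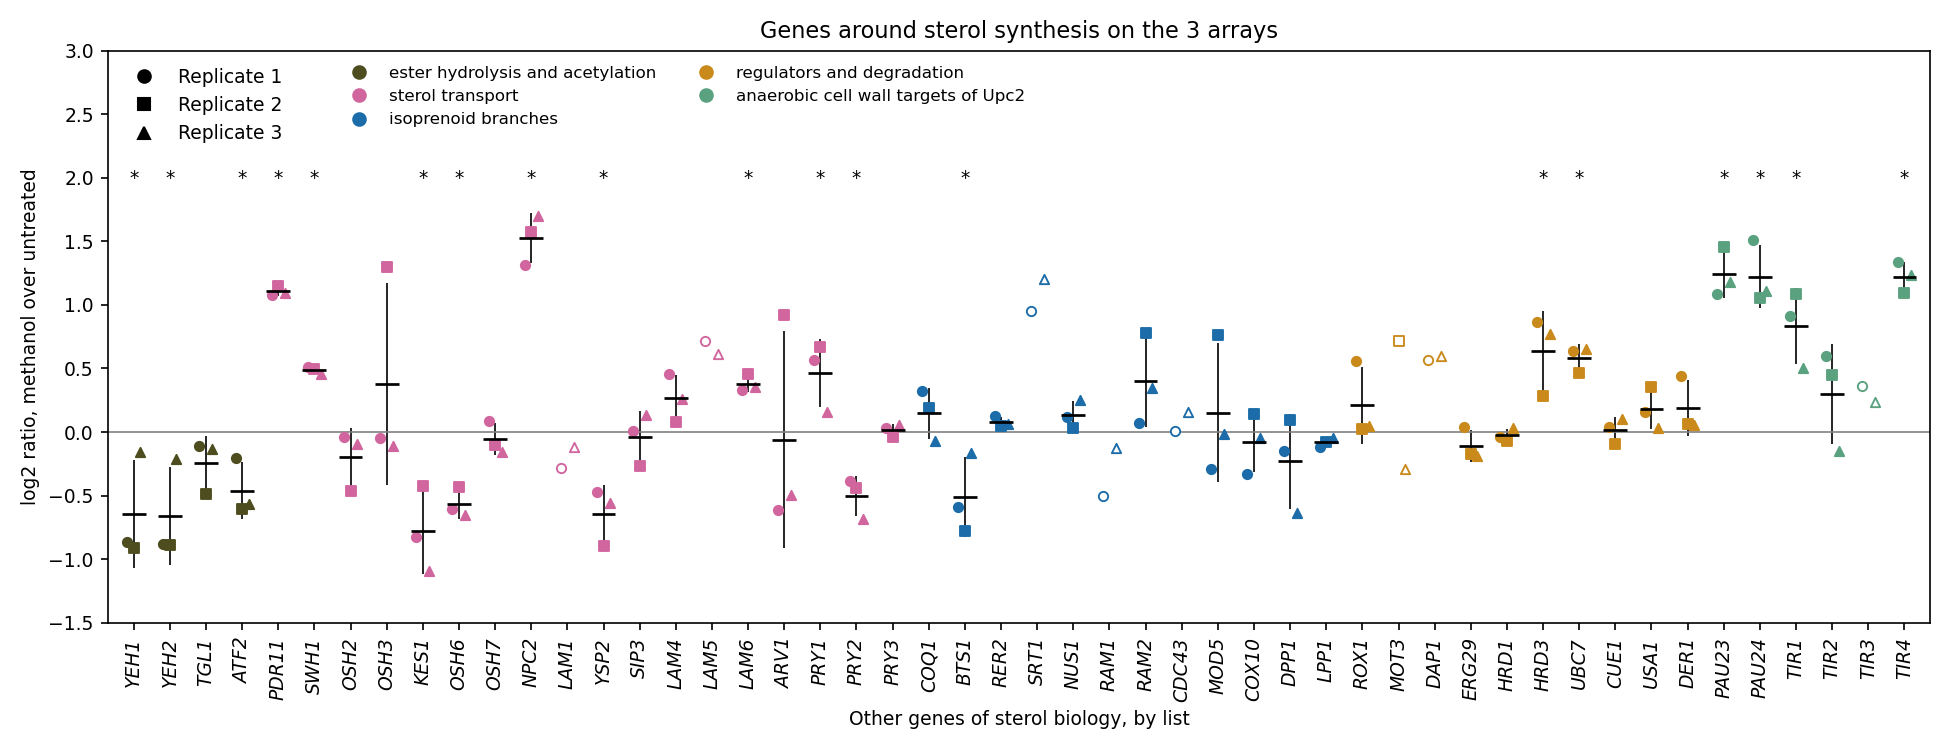
Log2 ratio (methanol over untreated, y axis) of other genes of sterol biology by list (x axis). Circles, squares and triangles are replicates 1, 2 and 3, bars with lines are the mean ± SD over 3 arrays, open symbols are genes with fewer arrays and asterisks mark genes called by limma. NPC2 stands highest of the tested genes with a mean of 1.53, and the 4 genes of ester hydrolysis and acetylation lie below 0 on each array.

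Sterol genes were well measured by the number of scans. Of the 29 tested, 21 had a value in all 6 scans (72.4%), against 36.8% of all genes tested. In 79 pairs of scans of the same array, from 30 sterol genes, the centred high-power value differed from the low-power value by a median absolute 0.15, against 0.12 for all genes, and 3 pairs had opposite signs. The differences ran from -0.46 (IDI1) to 0.40 (ERG2). Looked at after the values were seen, replicate 2 stood apart in genes with a high-power value only. There, 5 of 7 sterol genes lay more than 0.5 from the mean of the other arrays, with ERG24 (1.02), ERG4 (1.22) and NSG2 (1.22) above it and ERG6 (-0.52) and CYB5 (-0.63) below, whereas 0 of 22 with both scans did. Among all genes tested the shares were 26.3% and 14.3%. The part of laser power in these values was not tested.

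**Figure D5:**
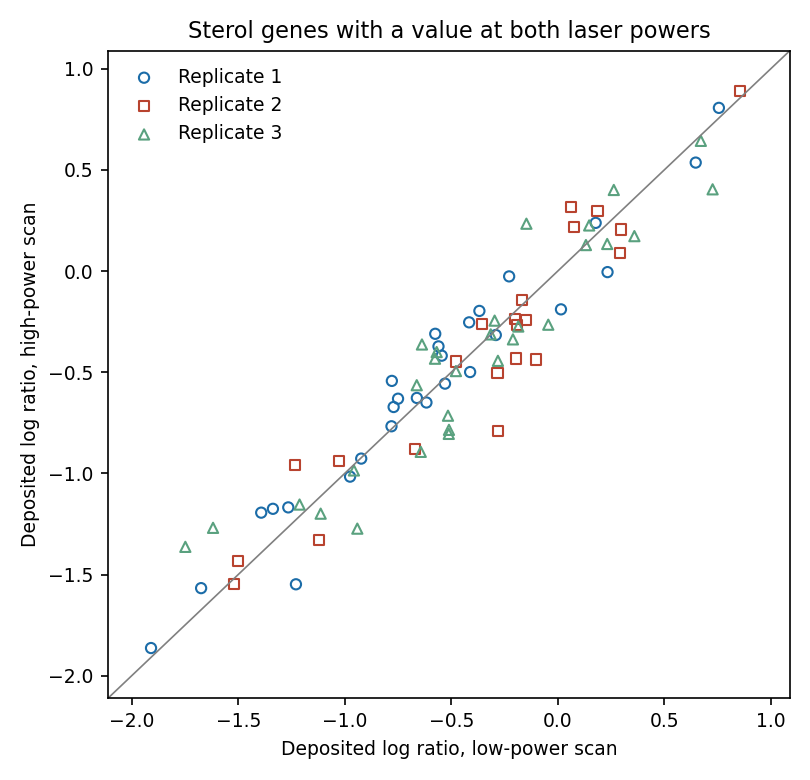
Deposited log ratios of sterol genes in the high-power scan (y axis) and the low-power scan (x axis) of the same array, before centring. Each symbol is 1 gene on replicate 1 (circles), 2 (squares) or 3 (triangles), and the line marks equal values, along which the points lie from about ERG25 at the lower left to ERG28 at the upper right.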

How the data were processed

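The data were log2 ratios per spot, 1 column for each of 6 scans. Per the labels, the authors normalized spots with flag 0 by LOWESS and deposited these log ratios, read here as log2. The merged value the labels mention was not used here, and spots without a value were taken as flagged out. Intensities, scanner and image software are not given in the sources used here. Of 6912 spots, 5446 carried 1 gene in the platform annotation, all matched to the R64 reference table. The array means correlated at 0.817 to 0.855. Scans of an array were averaged, then spots per gene (each sterol gene on the array had 1 spot), and the median over genes (-0.05, -0.05 and -0.02 on replicates 1, 2 and 3) was subtracted from each array. Values existed for 33, 29 and 34 sterol genes on replicates 1, 2 and 3. Genes with 3 arrays were fitted with limma 3.58.1 in R 4.3.3, an intercept against 0, and the fit was tested on simulated data. Exact two-sided sign-flip tests were run over arrays for 8 within-array differences, each with p = 0.25 before and after Benjamini-Hochberg adjustment. With 3 arrays of the same sign no other value is possible, so these tests do not measure the size of a gap. Log ratios give no levels, so the strain could not be checked by level. The coverage of mating type genes, given next, cannot identify the strain. STE3 and MF(ALPHA)2, genes of alpha cells, had values in all 6 scans. Of the genes of a cells, STE2 had values in 3 scans, and MFA1 and MFA2 in 2 each. Genes of both mating types thus had values, and MF(ALPHA)1, also planned, was not found among the named spots.

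The members, role groups and lists were chosen with earlier results of these data known. All members are named. Of other lists, up to 4 called genes per direction are named, with some genes that were not called or were outside the main test. Planned promoter motif searches were not run, as no sequence was used here. The number of arrays, 3, limits the precision, and p-values cover the spread between these cultures.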

Additional observations from a re-analysis of the deposited data

How the results depend on the processing

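Of the 16 called sterol genes, 10 kept their call under every alternative that gave them a value, 6 lost it under at least 1, and 6 of the 13 others were called under at least 1. No sterol gene reversed a call. The 14 lower and 2 higher calls of 29 tested genes became 16 and 1 without centring and 18 and 3 with array weights, again of 29. All genes called lower were 26.7% without centring and 26.6% with array weights, and those called higher were 1070 and 1225 of 4336. Over genes with all 6 scans, only 21 sterol genes were tested, of which 12 were lower and 4 higher. There, 30.4% of all genes were called lower, and 471 of 1596 were called higher. Leaving out 1 replicate gave 9 to 17 lower and 1 to 2 higher calls, the fewest lower calls without replicate 1. Without replicates 1, 2 and 3 in turn, 9, 17 and 10 sterol genes were lower and 1, 2 and 1 higher. Of all 4336 genes, 594 (13.7%), 1074 and 738 were then called lower, and 692, 1156 and 869 higher. The median of the late steps, -0.55, was -1.17 with the low-power scans alone and -1.13 over genes with all 6 scans, since ERG24, ERG6, ERG5 and ERG4 lack a low-power value on replicate 2. The sterol median ran from -0.45 to -0.29 over the alternatives. Of 18 genes of the other lists that were called in the main test and named, 7 kept their call throughout and 11 lost it under some omission. ERG7, SUT1, ARE1 and SAY1 had 2 arrays, so only the fit of genes with values on at least 2 arrays covered them. UPC2 had 1 array and no such check. Without spot intensities, signal over background could not be computed.
Each ratio sets a treated against an untreated sample of the same array, so the fit is already paired and has no further block.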
